A study of Homo sapiens with 16 samples.

Results

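Cohesin sites that 2 Ewing sarcoma cell lines had in common, and at which no H3K27ac peak was called in either, are described here. They are the distinct TC-32 SMC1 intervals on chromosomes 1 to 22 and X that share at least 1 bp with a TC-71 SMC1 interval and touch no H3K27ac domain of TC-71 or TC-32. The deposited peak lists hold 13351 such intervals among 32720 distinct TC-32 SMC1 intervals. The members were thus chosen by the SMC1 and H3K27ac peak calls of both lines, and BORIS had no part in the choice. TC-71 and TC-32 are established lines of Ewing sarcoma, a bone and soft tissue tumour whose usual driver joins EWSR1 to an ETS transcription factor. The labels place TC-71 after chemotherapy and TC-32 at diagnosis. Both lines were grown in the same medium with no treatment given in the labels, and chromatin was precipitated with antibodies against SMC1, H3K27ac and BORIS, with an input for each line. The labels give 2 samples per line and antibody, both tied to 1 list, so no value below carries a replicate error and no test between lines was possible. Read depth is unknown from these lists. Each line is a single tumour model. A site outside every domain is one where no H3K27ac peak was called, which does not show that acetylation was absent. Expression was not measured, so the labelled cell type could not be checked against marker genes.

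Cohesin is a ring of SMC1, SMC3 and RAD21 with a STAG subunit that holds DNA together and extrudes it into loops. Loop extrusion is commonly halted where the zinc-finger protein CTCF is bound in a suitable orientation, and many cohesin sites of this kind lie away from genes and enhancers. A further set lies at active promoters and enhancers, where histone H3 is acetylated at lysine 27 (H3K27ac). BORIS (CTCFL) is a germ-line paralog of CTCF with a very similar zinc-finger domain that can appear in tumours. In Ewing sarcoma the fusion factor binds and remodels enhancers.

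Of all TC-32 SMC1 intervals, 50.3% lay at a TC-71 SMC1 interval and 71.5% lay outside every H3K27ac domain, while 40.8% met both conditions and make up the set. These values chose the set and are given as a description. The other classes were 3109 shared intervals with H3K27ac in at least 1 line, 10031 intervals listed in TC-32 alone without H3K27ac in either line, and 6229 in TC-32 alone with H3K27ac. The shared acetylated class had H3K27ac in both lines at 1773 intervals, in TC-71 alone at 577 and in TC-32 alone at 759. The unacetylated intervals thus formed the larger part of the cohesin map common to both lines. At the edge of the rule, the nearest sites kept were in contact with a domain without sharing a base. One lay at 6q25.1 (hg19 chromosome 6, 149886772 to 149886978), at 0 bp from a TC-71 domain and 431 bp from a TC-32 domain. Among the nearest sites left out was one at 5q35.1 (chromosome 5, 171533876 to 171534205), with 1 bp inside a TC-32 domain. Sites at 7p15.2, 12q24.31 and 15q26.3 likewise had 1 bp inside a TC-71 domain. Within 0.1 kb of a domain of either line were 310 of the 13351 intervals (2.32%), and the other members lay farther away.

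The intervals were short and single. Their median width was 260 bp (95% interval of the median 258 to 261 bp), with quartiles of 215 and 311 bp and a range from 138 to 853 bp. Shared acetylated intervals had a median width of 296 bp (291 to 302) and reached 1895 bp, and unacetylated ones of TC-32 alone had a median of 196 bp (195 to 198). More than 1 summit was listed in 123 of the 13351 intervals (0.921%, exact 95% interval 0.766 to 1.10%), against 299 of 3109 shared acetylated intervals (9.62%, 8.60 to 10.7%) and 4.11% of all TC-32 SMC1 intervals. The exact intervals of these classes of shared interval do not overlap, which covers counting error within 1 list only. A wider interval also touches a domain more readily, so the rule bears on width and summits. Its part in the difference was not tested. Among unacetylated intervals of TC-32 alone, 1.56% (1.32 to 1.82%) had more than 1 summit. Several summits were thus rare in both unacetylated classes. Width follows rank in this list, with medians of 166, 197, 241 and 304 bp from the lowest to the highest rank quartile of unacetylated shared intervals. At the same quartiles the acetylated shared intervals measured 201, 235, 274 and 343 bp and were wider in each.

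TC-71 placed cohesin at almost the same base. Of the 13351 intervals, 13336 had a single TC-71 partner and 15 had several. The median distance between TC-71 and TC-32 summits was 9 bp, and 98.7% (98.5 to 98.9%) of summits lay within 50 bp of each other. Among shared acetylated intervals the median was 11 bp (11 to 12) and 93.3% (92.4 to 94.2%) lay within 50 bp. Overlap of short peaks keeps summits close in both classes, so this is a comparison of classes and not a measure of precision. Better ranked sites were closer, with median offsets of 15, 12, 10 and 8 bp from the lowest to the highest TC-32 quartile. TC-71 partners were narrower than their TC-32 intervals, with a median width of 187 bp against 260 bp and a median ratio of 0.733. Peaks were called in each line by itself, so no change in binding is read from this ratio.

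The set held most of the strong end of the TC-32 list. The share of unacetylated shared intervals per rank decile, from lowest to highest −log10 q, was 4.42%, 9.39%, 16.6%, 24.8%, 33.9%, 44.0%, 57.0%, 65.7%, 74.3% and 78.1%. Among the 100 highest-ranked TC-32 SMC1 intervals, 72 belonged to the set, 28 were shared and acetylated, and none (0) was listed in TC-32 alone. Among the 1000 highest-ranked, 785 belonged to it. Shared acetylated intervals rose likewise, from 1.49% of the lowest decile to 18.6% of the highest. Their median TC-32 rank percentile was 71.3 (69.9 to 72.2), beside 72.3 (71.7 to 72.8) for the set. High rank thus went with presence in both lists and was not particular to the set. The low end of the list was of another composition, with 57.1% of the lowest decile in TC-32 alone and acetylated. Presence in TC-71 was part of the rule, so these shares are a description of the lists.

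**Figure D1:**
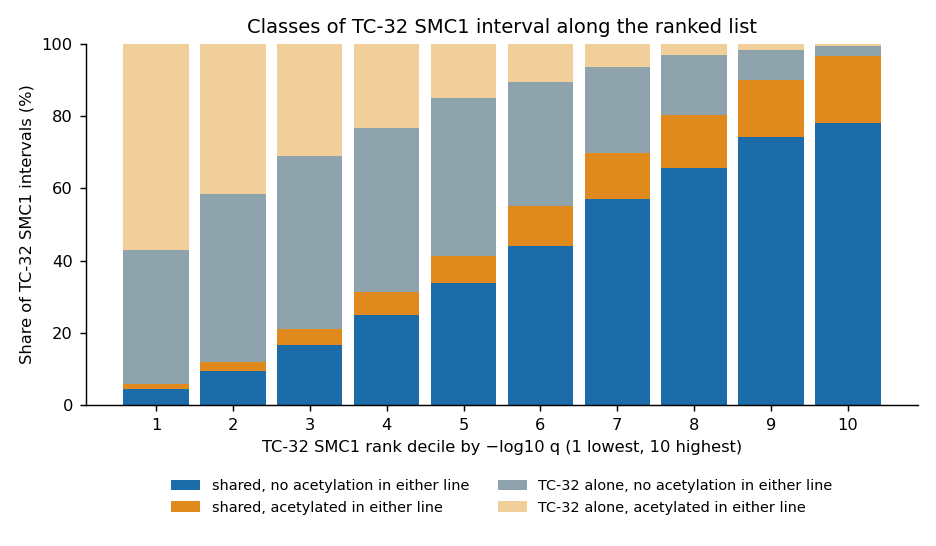
Stacked bars give the percentage of TC-32 SMC1 intervals in each class for every rank decile by −log10 q, from 1 (lowest) to 10 (highest). The shared unacetylated class makes up 4.42% of the lowest decile and 78.1% of the highest, and the shared acetylated class 1.49% and 18.6%. The class of TC-32 alone with acetylation makes up 57.1% of the lowest.

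The authors' fold enrichment over input at these sites had a median of 6.47 in TC-71, with quartiles of 5.08 and 8.42. In TC-32 the median was 8.88, with quartiles of 6.45 and 12.2. Across the 13351 sites the order of −log10 q was alike in part between the lines, with a Spearman correlation of 0.532. It was 0.595 over the 3109 shared acetylated intervals. All sites of a line share 1 SMC1 list and 1 input, so these values are descriptions. In the highest quartile of both lists lay 2873 intervals (21.5%), and in the lowest quartile of both lay 335. The highest −log10 q of the set was at 5q35.2 (chromosome 5, 174961069 to 174961501), with folds of 9.67 in TC-71 and 28.4 in TC-32. That site lay 54543 bp from a TC-71 domain and 39347 bp from a TC-32 domain. At 9p13.3 (chromosome 9, 33722084 to 33722452) the folds were 22.8 in TC-71 and 40.9 in TC-32, and the domains lay 42386 and 44609 bp away. At 13q32.3 (chromosome 13, 100089113 to 100089550) the folds were 21.6 and 24.7, and this site had the highest TC-71 −log10 q of the set, 143, beside 198 for TC-32. Each of the 10 strongest sites of the set stood at a rank percentile of 95.8 or more in TC-71.

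Some sites stood high in one list and low in the other. The site highest in TC-71 relative to TC-32 was at 11p15.1 (chromosome 11, 18797286 to 18797493), at percentile 92.8 of the TC-71 list and 2.40 of the TC-32 list, where its fold was 2.73. At 14q32.13 (chromosome 14, 94952702 to 94952861) the percentiles were 95.6 for TC-71 and 14.4 for TC-32, where the fold was 3.21. The reverse was seen at 15q26.2 (chromosome 15, 94540273 to 94540664), at percentile 7.76 in TC-71 and 99.6 in TC-32, with folds of 4.86 and 31.9. The nearest domain to that site lay 1075710 bp away in TC-71 and 17581 bp away in TC-32. At 6q16.3 (chromosome 6, 100624622 to 100624890) the percentiles were 3.30 and 95.3 and the nearest TC-71 domain lay 607572 bp away, the nearest TC-32 domain 25536 bp. At 6q14.1 (chromosome 6, 75913904 to 75914282) the percentiles were as far apart, at 1.79 and 95.5, and the domains lay at 38599 and 38635 bp. Of the 5 sites lowest in TC-71 relative to TC-32, 3 were on 6q. Chromosome 6 held 774 of the 13351 sites, with a median percentile difference (TC-71 minus TC-32) of -15.0 against -12.5 over the set. These 5 sites were picked as extremes, so no pattern of the arm is read from them. Percentile gaps above 50 points occurred at 98 sites standing higher in TC-71 and 1361 standing higher in TC-32. The percentiles come from lists of unequal length (18264 intervals in TC-71 and 32720 in TC-32), so these totals show no change.

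Few of the sites bordered acetylated chromatin. The median distance to the nearest H3K27ac domain was 39227 bp in TC-71 (37815 to 40545) and 27480 bp in TC-32 (26580 to 28231). To the nearest domain of either line it was 22569 bp (21945 to 23298), with quartiles of 7100 and 62109 bp. A domain lay within 10 kb of 21.2% of the sites in TC-71 (20.5 to 21.9%) and of 26.5% in TC-32 (25.8 to 27.3%). Both lines had one within 10 kb at 16.3% (15.7 to 16.9%). The lists hold 26334 domains in TC-71 and 36355 in TC-32. With lists of equal length the medians were 38948 bp for TC-71 and 32898 bp for TC-32.

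Unacetylated intervals of TC-32 alone lay farther from domains of both lines, at a median of 66253 bp (62808 to 69812) from TC-71 domains and 31145 bp (29810 to 32788) from TC-32 domains. Within 1 kb of a TC-32 domain lay 5.10% (4.73 to 5.49%) of the shared unacetylated sites and 9.38% (8.82 to 9.97%) of unacetylated sites of TC-32 alone. For TC-71 domains the shares within 1 kb were 4.61% (4.26 to 4.98%) for shared unacetylated sites and between 3.62 and 4.40% (401 of 10031) for unacetylated sites of TC-32 alone. Only 214 shared sites (1.60%) had a domain within 10 kb in TC-71 and none within 50 kb in TC-32, and 580 (4.34%) had the opposite arrangement. At the far end, 153 sites (1.15%) were more than 500 kb from every domain. The farthest were at 21p11.2 (chromosome 21, 9590223 to 9590413), 15q11.1 (chromosome 15, 20561729 to 20561948) and 11p11.12 (chromosome 11, 50017243 to 50017410), all in bands beside a centromere or on a short acrocentric arm. Away from such bands the site at 4p15.1 (chromosome 4, 33062631 to 33062939) had folds of 8.86 for TC-71 and 10.3 for TC-32, with no domain within 1872726 bp in TC-71 or 1872201 bp in TC-32.

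**Figure D2:**
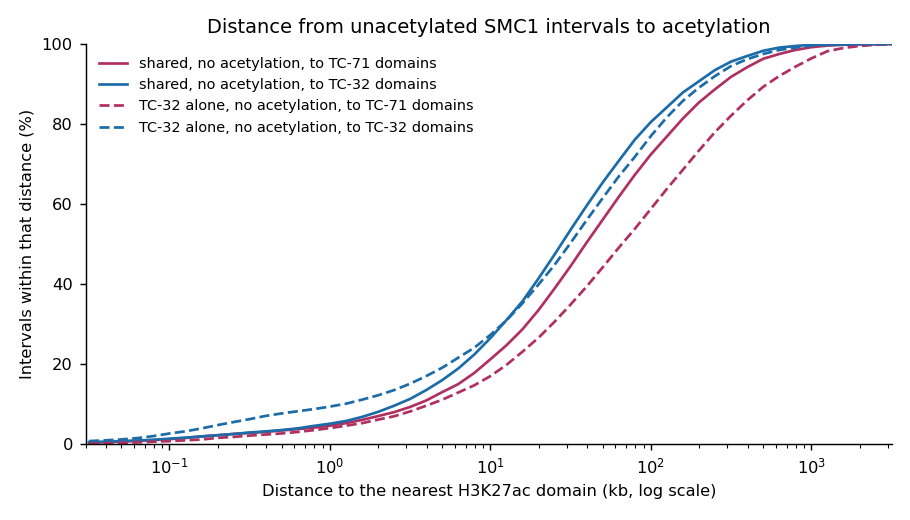
Lines give the percentage of unacetylated SMC1 intervals with an H3K27ac domain within a given distance (kb, log scale), for shared intervals (solid) and intervals of TC-32 alone (dashed), to TC-71 and to TC-32 domains. For TC-71 domains the shared intervals lie nearer, with a median of 39227 bp against 66253 bp for intervals of TC-32 alone. For TC-32 domains the curves part below 10 kb, with 5.10% of shared intervals and 9.38% of intervals of TC-32 alone within 1 kb, and cross near 10 kb.

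Spacing along the chromosome was next described. The gap to the nearest TC-32 SMC1 interval of any class had a median of 20656 bp (19934 to 21264), with quartiles of 6838 and 50717 bp. Shared acetylated intervals were more crowded, at a median of 12374 bp (11139 to 13234). Unacetylated intervals of TC-32 alone had a median of 20891 bp (19898 to 21845), whose interval overlaps that of the shared unacetylated sites. Another SMC1 interval lay within 2 kb of 8.13% (7.68 to 8.61%) of the shared unacetylated sites, against 9.46% (8.89 to 10.1%) of unacetylated intervals of TC-32 alone, 22.3% (20.8 to 23.8%) of shared acetylated intervals and 14.3% of all TC-32 SMC1 intervals. Few close neighbours were thus found in both unacetylated classes. The closest neighbours within the set were at 13q21.1 (chromosome 13, 58198704 to 58198970 and 58199059 to 58199380), 88 bp apart and joined by a single TC-71 interval. At 9p23 (chromosome 9, 13088684 to 13089110 and 13089200 to 13089485) the gap was 89 bp and TC-71 had an interval for each, with folds of 6.27 and 6.47. Taking the unacetylated shared sites alone, the gap from each to the next had a median of 108966 bp (105744 to 112289).

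Nearest neighbours were next described by class, which the SMC1 and H3K27ac calls of the rule define. The nearest SMC1 neighbour of a site in the set was itself in the set in 49.0% (48.1 to 49.8%) of cases. Of all intervals, 40.8% belong to the set. That list share takes no account of acetylated intervals lying near each other. How much of the excess follows from the rule was not tested. For unacetylated intervals of TC-32 alone, 40.6% (39.7 to 41.6%) of nearest neighbours were in the set. That share does not count neighbours of their own class. The nearest neighbour of a site in the set was acetylated in 19.2% (18.6 to 19.9%) of cases. The share was 19.7% (18.9 to 20.5%) for unacetylated intervals of TC-32 alone, so few acetylated neighbours were not particular to the set. It was 47.7% (46.0 to 49.5%) for shared acetylated intervals and 29.8% over all TC-32 SMC1 intervals. With lists of equal length the set made up 61.6% of the list and 65.8% of nearest neighbours, and with TC-71 intervals as the base 74.4% and 79.3%, so the excess over the list share was smaller there. Reciprocal nearest pairs of the set numbered 2178, holding 4356 sites (32.6%), with a median gap of 11642 bp. Uninterrupted runs of such sites numbered 6750, of which 3626 were single sites and 458 held at least 5, and the longest held 16. Consecutive pairs in the TC-32 list with both intervals in the set numbered 6601.

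Acetylated domains lay between some of these neighbours. A whole domain of at least 1 line lay between 2762 of the 6601 pairs (41.8%, 40.6 to 43.0%). Both lines had one there at 1811 pairs (27.4%, 26.4 to 28.5%), TC-71 alone at 332 (5.03%), TC-32 alone at 619 (9.38%), and neither at 3839 (58.2%, 57.0 to 59.4%). Pairs with domains from both lines between them were far apart, at a median gap of 90414 bp, and pairs with none were at 26547 bp. For gaps of 10 to 50 kb, a domain of either line was enclosed by 32.8% (30.8 to 34.8%) of pairs with both intervals in the set, 38.3% (36.8 to 39.7%) with 1 and 48.8% (47.2 to 50.5%) with neither. For 50 to 100 kb the shares were 56.3% (53.7 to 58.9%), 61.8% (1696 of 2743 pairs) and 65.9% (63.9 to 67.8%). The order depended on the line whose domains were counted. Over 100 kb, TC-71 domains lay between 50.6% (48.3 to 52.9%) of pairs of the set and 43.9% (42.1 to 45.6%) of pairs with neither interval in it. TC-32 domains lay between 55.0% (52.8 to 57.3%) of pairs of the set and 65.2% (63.4 to 66.8%) of pairs with neither at those gaps. At 50 to 100 kb the TC-71 shares were level, at 44.8% (42.2 to 47.5%) and 43.5% (41.5 to 45.5%). At gaps up to 2 kb a domain of either line lay between 9 of 276 pairs of the set (3.26%, upper bound 6.10%), 4.63% (3.04 to 6.71%) of pairs with 1 interval in it and 1.95% (1.35 to 2.73%) of pairs with neither. A domain that reaches over an SMC1 interval was not counted as lying between, and an interval of the set touches none by rule. The H3K27ac calls that chose the set also supply these domains. Pairs with neither interval in the set include acetylated intervals, and unacetylated pairs of TC-32 alone were not separated. The differences between kinds of pair are therefore a description.

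**Figure D3:**
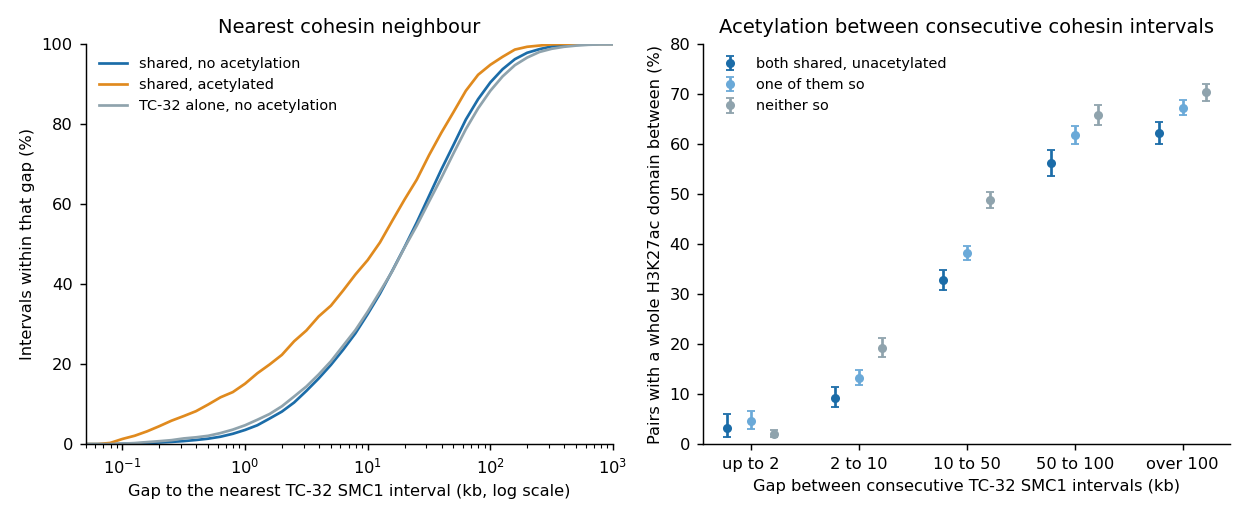
Left, the percentage of TC-32 SMC1 intervals with another within a given gap (kb, log scale), for shared unacetylated, shared acetylated and TC-32-alone unacetylated intervals. Right, the percentage of consecutive pairs with a whole H3K27ac domain of either line between them by gap, with exact 95% intervals, where pairs of the set stand at 32.8% and pairs with no interval of the set at 48.8% for 10 to 50 kb. With TC-71 domains alone the order turns over 100 kb, at 50.6% and 43.9%. The H3K27ac calls also chose the set, so these shares are a description.

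The merged domains of both lines divide the chromosomes into 44511 stretches, of which 8449 (19.0%) held at least 1 site of the set. A single site stood in 5632 of these stretches (42.2% of the set), 2601 held 2 to 4, and 216 held at least 5. The fullest of them held 13 sites in 1913 kb at 8q24.12 to 8q24.13 (chromosome 8, 121880958 to 123793852), with median rank percentiles of 72.3 (TC-71) and 67.7 (TC-32) and a mean gap of 149 kb. The densest of the 10 fullest was at 1q23.1 (chromosome 1, 156572053 to 156697153), where 12 sites stood in 125 kb at a mean gap of 10.5 kb and 2 of them carried BORIS. No other stretch of the 10 held a BORIS peak at a site of the set. Stretches with 12 sites were also found at 12p13.1 (chromosome 12, 13332527 to 14392260) and at 9q21.32 to 9q21.33 (chromosome 9, 86827902 to 88328891). Antigen receptor bands appeared 2 times on this list, with 11 sites in 510 kb at 22q11.22 (chromosome 22, 22901674 to 23412076) and 11 in 928 kb at 14q32.33 (chromosome 14, 105995263 to 106922961). These are the bands of the immunoglobulin lambda and heavy chain loci, which in B cells are folded by cohesin before rearrangement. At 3q25.1 (chromosome 3, 150482014 to 151261275), 11 sites had a median percentile of 55.6 in TC-71 and 85.9 in TC-32. Of the 5 longest stretches with at least 2 such sites, the longest off the centromeres, of 5479 kb at 2p12 to 2p11.2 (chromosome 2, 79206753 to 84685680), held 4 sites of the set among 13 TC-32 SMC1 intervals.

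By chromosome the set was densest on 19, with 8.64 sites per Mb, then 17 with 6.90 and 20 with 6.28. It was sparsest on X with 1.80, 13 with 2.79 and 21 with 2.87. Lengths are the full ones of the hg19 band table, with assembly gaps such as acrocentric short arms counted. Densities of acrocentric chromosomes such as 13 and 21 are lowered by this. Read against the TC-32 SMC1 intervals of each chromosome, the share in the set was 53.0% (49.7 to 56.1%) on 19, 51.9% (47.3 to 56.5%) on 22 and 50.6% (47.0 to 54.1%) on 20, against 29.8% (26.9 to 32.8%) on X and 34.4% on both 4 and 13. Band 19p13.3 held the most sites, 96, followed by 1q32.1 with 95, 17q25.3 with 75 and 19p13.2 with 69. The band with the most sites per Mb among the 10 fullest was 12q13.13, with 57 sites at 16.8 per Mb, the band of the HOXC homeobox genes. No gene was assigned to an interval.

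Giemsa staining, which the rule did not use, darkens with AT-rich, gene-poor, late replicating chromatin. In bands of staining class 50 and above lay 33.3% (32.5 to 34.2%) of the set, against 38.4% of all TC-32 SMC1 intervals. The share was 32.6% (31.0 to 34.3%) of shared acetylated intervals, within counting error of the set, and 43.1% (42.1 to 44.1%) of unacetylated intervals of TC-32 alone. Weighted to the TC-32 rank deciles of the set, that last share was 45.3%. Density in the set was 6.76 per Mb in class 25 bands and 2.22 per Mb in class 100 bands, a ratio of 3.04. Unacetylated intervals of TC-32 alone were spread almost evenly, at 3.95 and 3.17 per Mb, a ratio of 1.25. The unacetylated cohesin sites thus had band profiles that differed by whether TC-71 listed them. The lower H3K27ac density in dark bands (12.8 domains per Mb in class 100 and 29.8 in class 25, both lists summed) went with longer distances, at medians of 41095 and 17844 bp from a site of the set to the nearest domain.

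**Figure D4:**
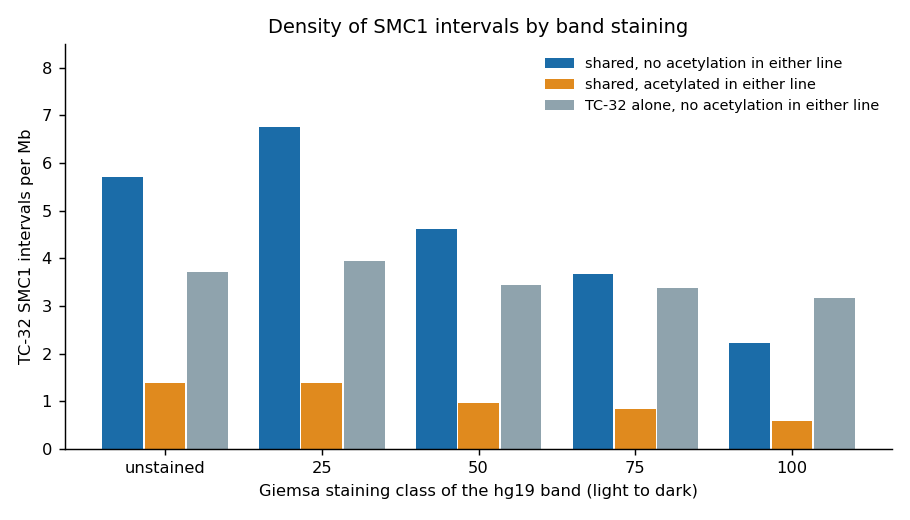
Bars give TC-32 SMC1 intervals per Mb of hg19 band sequence by Giemsa staining class, from unstained to 100 (darkest), for 3 classes of interval. Shared unacetylated intervals go from 6.76 per Mb in class 25 to 2.22 in class 100, while unacetylated intervals of TC-32 alone stay between 3.17 and 3.95.

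BORIS, which the rule did not use, was sparse in the set. A TC-71 BORIS peak lay at 114 of the 13351 sites (0.854%, 0.705 to 1.02%), against 1.20% of all TC-32 SMC1 intervals. It lay at 200 of 3109 shared acetylated intervals (6.43%, 5.60 to 7.35%) and at 16 of 10031 unacetylated intervals of TC-32 alone (0.160%, 0.0912 to 0.259%). TC-32 BORIS peaks, of which only 6 are listed, lay at 0 of the 13351 sites, with an upper exact bound of 0.0276%, against 0.0153% of all TC-32 SMC1 intervals. The intervals around these shares do not overlap between the 3 classes for TC-71 BORIS, and no test was made because each class comes from the same single lists. Intervals of TC-32 alone have by definition no SMC1 peak in TC-71, the line whose BORIS was read, and these conditions cannot be told apart. When TC-71 intervals were taken as the base, the shares without acetylation were 0.913% (0.760 to 1.09%) for shared and 0.905% (0.483 to 1.54%) for TC-71 alone, whose intervals overlap.

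The classes stood apart in each rank quartile. By rank quartile of the TC-71 partner, from lowest to highest, BORIS lay at 0.466%, 0.539%, 0.817% and 1.47% of the set (54 of 3679 sites in the highest, 1.10 to 1.91%). At shared acetylated intervals the shares were 5.06%, 7.13%, 6.19% and 7.49%. Weighted to the TC-71 rank deciles of the set, the acetylated share was 6.53%. Within the set the share was higher near acetylation. BORIS lay at 20 of 615 sites within 1 kb of a TC-71 domain (3.25%, upper bound 4.98%), at 1.09% (0.697 to 1.61%) between 1 and 10 kb, at 0.746% (0.556 to 0.979%) between 10 and 100 kb and at 0.515% (0.311 to 0.804%) beyond 100 kb. The sites within 1 kb had a median TC-71 percentile of 50.2, against 57.1 at 10 to 100 kb and 48.7 beyond 100 kb. Why the share was higher near domains was not tested. Leaving out every site within 1 kb of a domain gave a share of 0.746% (0.602 to 0.914%). By staining class it was 1.05% (0.828 to 1.31%) in unstained bands and 0.271% (0.0559 to 0.790%) in class 100 bands.

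**Figure D5:**
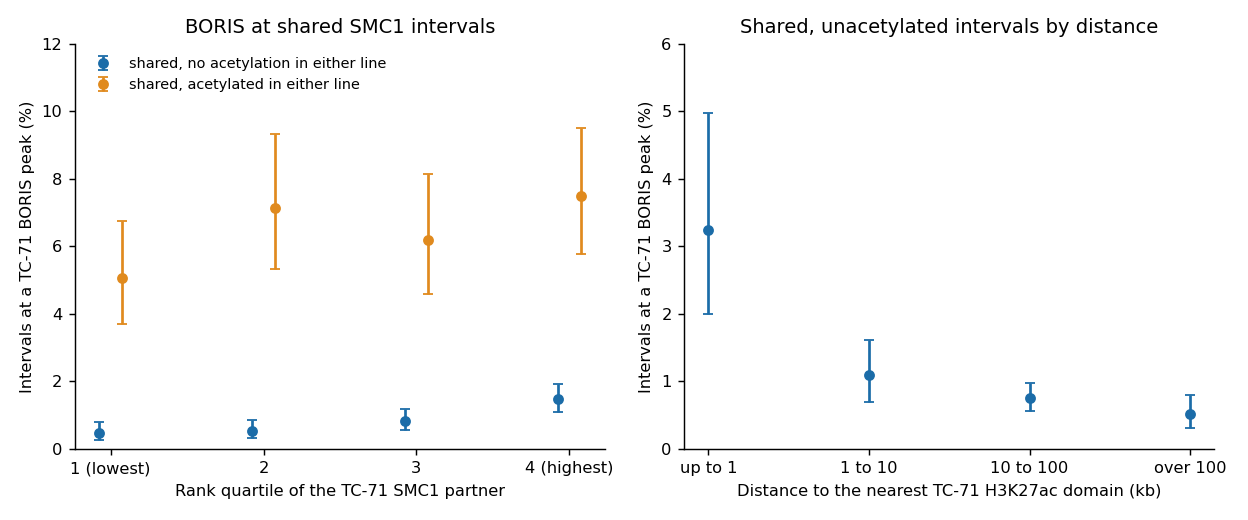
Points give the percentage of shared SMC1 intervals at a TC-71 BORIS peak with exact 95% intervals. Left, by rank quartile of the TC-71 partner, the unacetylated intervals stay between 0.466% and 1.47% and the acetylated ones between 5.06% and 7.49%. Right, among unacetylated intervals the share is 3.25% within 1 kb of a TC-71 H3K27ac domain and 0.515% beyond 100 kb.

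The 114 BORIS peaks at these sites made up 21.3% of the 534 listed in TC-71, and the 200 at shared acetylated intervals made up 37.5%. BORIS peaks of the set had a median fold of 6.04, against 5.72 at shared acetylated intervals and 5.98 for the whole list. By −log10 q their median percentile was 42.8 in the BORIS list, against 46.8 at shared acetylated intervals. By BORIS rank quartile, from lowest to highest, 24.2%, 23.3%, 19.3% and 18.7% of BORIS peaks lay at a site of the set, with overlapping intervals. BORIS and SMC1 summits were a median of 14 bp apart in TC-71 at these sites and 18 bp apart at shared acetylated intervals. Sites of the set with BORIS lay nearer to acetylation, at a median of 12132 bp from any domain against 22569 bp over the whole set. Of these sites, 21.1% were in dark bands against 33.3% of the whole set. They also stood higher in the TC-71 SMC1 list, at a median percentile of 72.7 against 54.2. Their median gap to another SMC1 interval was 12533 bp against 20656 bp. Distance, staining, rank and gap were not separated for these sites. Their nearest SMC1 neighbour was in the set in 56 of 114 cases (49.1%, 39.6 to 58.7%), as in the set at large. It also carried BORIS in 6 of 114 cases (5.26%, 1.96 to 11.1%), against 1.20% of all TC-32 SMC1 intervals. The BORIS share among neighbours of sites without BORIS was not counted, so no clustering is read from these few cases.

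The strongest BORIS peak at a site of the set was at 9q34.13 (chromosome 9, SMC1 134615469 to 134615774, BORIS 134615495 to 134615651), with a BORIS fold of 19.7 and SMC1 folds of 11.6 for TC-71 and 21.1 for TC-32. H3K27ac domains began 180 bp away in TC-71 and 218 bp away in TC-32. The next, at 14q24.3 (chromosome 14, SMC1 74225119 to 74225293), had a BORIS fold of 13.1 and a TC-71 domain 24 bp away and a TC-32 domain 17 bp away. The pair at the head of this list therefore stood at the border of acetylated chromatin. Farther out, 17q25.1 (chromosome 17, SMC1 73236787 to 73237032) had a BORIS fold of 10.5 with a TC-71 domain 19561 bp away and a TC-32 domain 8263 bp away, and the BORIS and TC-71 SMC1 summits fell on the same base. At 16q21 (chromosome 16, SMC1 57682973 to 57683254) cohesin was among the strongest of both lists, at percentiles of 99.8 in TC-71 and 97.2 in TC-32. BORIS had a fold of 11.8 there, and the nearest TC-71 domain lay 85069 bp away, the nearest TC-32 domain 71099 bp. At 9q34.11 (chromosome 9, SMC1 131769125 to 131769362) the BORIS fold of 13.6 stood beside cohesin folds of 7.22 in TC-71 and 7.32 in TC-32. At 8q24.12 (chromosome 8, SMC1 120886751 to 120886949) the folds were 4.74 for BORIS and 6.36 for TC-71 SMC1. By −log10 q both stood high in their lists, at percentile 92.2 for BORIS and 98.9 for TC-71 SMC1. The TC-32 SMC1 percentile was 66.0.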

How the data were processed

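The 16 samples fall into TC-71 and TC-32 groups by antibody, 2 per group. The submitters' processing notes name MACS2 2.1.1, STAR 2.5.1b, deepTools 2.2.4, SAMtools 1.3.1, Picard and hg19; neither settings nor the handling of replicates is given in the sources used here. The authors deposited 1 peak list per line and antibody, each with a score (10 times −log10 q without decimals, not used further), fold enrichment over input and −log10 q, plus summits for SMC1 and BORIS. Peaks were ranked, filtered and described by these values inside their own list only.

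Intervals with several summits were counted once, with the values of the summit of highest −log10 q (ties by fold). Overlap meant at least 1 bp; distances run edge to edge; rank percentiles follow −log10 q. Shares carry exact (Clopper-Pearson) 95% intervals and medians order-statistic 95% intervals, which cover counting error only. Depth is unknown. Staining and bands came from the hg19 table of circlize 0.4.16. Coordinates are counted from 1. No hg19 sequence or gene annotation was used here, so no sequence is printed, no motif was searched and no gene was assigned. Genes named with a band are textbook background. Named sites are the extremes of each measure (highest −log10 q, highest BORIS, farthest, closest, fullest stretch), and the text gives some of each. Members and measures were chosen with earlier results of these data known. Alternatives were −log10 q of at least 5, 50% coverage, a 1 kb margin around domains, lists of equal length and TC-71 intervals as the base. The scripts ran on scipy 1.17.1, pandas 2.3.3, numpy 2.4.6 and Python 3.11.15, with figures by matplotlib 3.10.9. The interval code was tested on 2000 simulated sites and made 0 wrong calls.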

Additional observations from a re-analysis of the deposited data

How the results depend on the processing

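No paired analysis was possible because each list covers both samples of a group together, so no replicate could be left out either. Of 60 values under 6 alternatives, 30 stayed within the interval of the reported value (or 1.5 times the count), among them every BORIS share (0.746 to 0.943%) and every number of sites (11246 to 13988). A −log10 q of at least 5 for SMC1 gave a list share of 43.0%, a median gap of 22365 bp, 49.9% like neighbours, a width of 262 bp and a rank percentile of 70.4. The same threshold for H3K27ac gave 42.8%, 50.3% like neighbours and domain distances of 56126 bp (TC-71) and 39508 bp (TC-32). With 50% coverage the list share was 37.3%, like neighbours 46.4%, dark bands 32.5%, width 252 bp and percentile 71.2. A 1 kb margin gave 37.7%, 47.4% like neighbours, a gap of 21443 bp and distances of 44077 bp (TC-71) and 30855 bp (TC-32), longer by construction. Lists of equal length were planned in order of −log10 p. That earlier run differed by 1 in its number of sites from the run reported here, and its values are not given. The order reported here, by −log10 q with ties by fold, was chosen after seeing the data, and gave 61.6%, 65.8% like neighbours, a gap of 35090 bp, a TC-32 domain distance of 32898 bp, a width of 274 bp and a percentile of 59.6. With TC-71 intervals as the base these were 74.4%, 79.3%, 36676 bp between neighbours, 187 bp and percentile 54.2. Fewer intervals in a list lengthen its gaps by construction. Unknown depth limits every count.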

Other observations

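Chromosomes differed in where their shared unacetylated sites stood in the TC-71 list relative to the TC-32 list. The median percentile difference, TC-71 minus TC-32, was -12.5 over the set. The lists differ in length, so these differences compare chromosomes and show no change between the lines. It was -4.37 on chromosome 22, -5.61 on 17 and -6.23 on 19, against -28.1 on X, -17.3 on 4 and -16.2 on 3. Chromosome 19 sites were also closest to acetylation, at a median of 10745 bp, and had the smallest median gap to another SMC1 interval, at 13490 bp, while X sites stood at 35037 bp from a domain and 27276 bp from a neighbour. Chromosomes were picked for these comparisons after their values were seen.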
